A study of Mus musculus with 39 samples.

Results

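Cd3d, Cd3e, Cd3g, Cd28, Thy1 and Cd4 encode 6 surface proteins of T cells, and their transcript levels were followed across 39 lymphomas of Eµ-myc mice. The genes were chosen by name. The array holds 45101 probe sets, 8 of which measure these genes. Where a gene had more than 1, the probe set of the highest mean stood for it, which gave 6 of the 18194 genes measured. In Eµ-myc mice a Myc transgene is placed under an immunoglobulin heavy chain enhancer, which directs it to B lineage cells. Mice were killed when they showed lymphoma or looked ill, and RNA of whole tumour tissue was hybridised to 1 array per tumour. All tumours carry the Eµ-myc genotype and form 1 group in the labels, which give no age, strain, treatment, normal tissue or other contrast. They do not say whether every tumour came from a separate mouse. The p-values below take the 39 samples as independent, and could be too small if tumours shared a mouse.

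The CD3 gamma, delta and epsilon chains assemble with the T cell receptor and carry the signal of antigen contact into the cell, and no receptor reaches the surface without them. CD4 is the coreceptor that binds MHC class II on helper T cells, and in the mouse it is also made by some dendritic cells, among them plasmacytoid ones. CD28 receives the costimulatory signal from CD80 and CD86, and THY1 is a small anchored glycoprotein of mouse T cells that neurons and fibroblasts also make. In whole tumour RNA a lower level can come from fewer cells that make the transcript or from less RNA per cell, and these cannot be told apart.

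The 3 CD3 genes are neighbouring protein-coding genes on chromosome 9 in the RefSeq annotation of GRCm38.p6, in the order Cd3g, Cd3d, Cd3e. Thy1 lies on the same chromosome, Cd28 lies beside Ctla4 on chromosome 1, and Cd4 lies beside Lag3 on chromosome 6. The start sites of Cd3g and Cd3d are 1355 bases apart on opposite strands, and that of Cd3e is 27825 bases from that of Cd3d. Their promoters are shown because these neighbours moved together across the tumours. Each runs from 250 bases before to 50 bases after the start site and is written 5′ to 3′ on the gene's strand: Cd3g at chr9:44980382-44980681 on the minus strand, Cd3d at chr9:44981536-44981835 on the plus strand and Cd3e at chr9:45009562-45009861 on the minus strand. Capitals mark matches on either strand to the core letters of 3 factor families, TGTGGT for RUNX, AGATAA for GATA and CTTTGA for TCF/LEF.
Cd3g: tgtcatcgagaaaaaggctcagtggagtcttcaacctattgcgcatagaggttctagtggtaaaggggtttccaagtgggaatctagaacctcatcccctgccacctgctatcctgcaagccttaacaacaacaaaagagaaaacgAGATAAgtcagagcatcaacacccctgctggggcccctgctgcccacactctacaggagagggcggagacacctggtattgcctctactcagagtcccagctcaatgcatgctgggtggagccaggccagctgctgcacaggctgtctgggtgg
Cd3d: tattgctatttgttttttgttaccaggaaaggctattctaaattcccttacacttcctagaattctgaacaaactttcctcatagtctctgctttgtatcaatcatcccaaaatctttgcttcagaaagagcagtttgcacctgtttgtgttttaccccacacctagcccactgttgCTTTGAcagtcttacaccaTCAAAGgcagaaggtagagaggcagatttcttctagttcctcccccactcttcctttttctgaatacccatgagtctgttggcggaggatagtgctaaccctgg
Cd3e: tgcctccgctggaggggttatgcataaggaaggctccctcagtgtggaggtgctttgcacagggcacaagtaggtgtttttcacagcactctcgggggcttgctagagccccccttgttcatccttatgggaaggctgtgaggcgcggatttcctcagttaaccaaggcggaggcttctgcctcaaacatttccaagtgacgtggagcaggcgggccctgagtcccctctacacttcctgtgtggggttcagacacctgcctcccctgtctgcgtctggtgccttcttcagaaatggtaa
Cd3g held a single GATA match at position -104 from the start site. Cd3d held a pair of TCF/LEF matches, at -73 on the gene's strand and at -54 on the opposite one. Cd3e held none of the 3 motifs. Of 32851 mouse promoters of the same length in the RefSeq table, 16.8% held the RUNX letters, 11.2% the GATA letters and 16.0% the TCF/LEF letters. The ETS core GGAA, left in lower case, occurred 2 times in Cd3g, 6 times in Cd3d and 5 times in Cd3e, and 96.0% of the promoters held it. A match of letters is a description and not a binding site.

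The arrays had medians of 5.61 to 5.78 (log2), and r between any pair of them over the probe sets was 0.889 to 0.991. The number of arrays limits the precision. Mean scores over 9 pan B cell genes, each centred on the gene's mean, were below -1 in 7 tumours (5, 6, 8, 19, 23, 26 and 32). These markers were low there on average, but not each of them in each tumour. Ebf1 was at 10.47 in tumour 6 (mean 9.66 over all tumours), and Cd22 at 11.73 and 11.47 in tumours 19 and 26 (mean 10.53). Myc was at 8.19 in tumour 2. The range of r between members, the counts of called genes and some list counts are given without these 8 tumours too. List counts along Cd3e and the nearest genes are not.

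Cd3d averaged 6.99 ± 1.44 (log2 level, SD, n = 39). It was lowest at 4.97 in tumour 9, had a median of 6.77, and reached 11.37 in tumour 2 and 10.70 in tumour 27. The next level was 9.01 in tumour 1, so that tumours 2 and 27 stood above a continuous run of 37 tumours. Cd3g had the widest spread of the 6 genes, at 6.47 ± 1.94, with 3.46 in tumour 9, a median of 6.18 and 11.14 and 10.54 in tumours 2 and 27. The next level, 9.87, was in tumour 14. Cd3e averaged 6.20 ± 0.53 and ran from 5.26 in tumour 24 over a median of 6.12 to 7.57 in tumour 27 and 7.82 in tumour 2. Tumour 3 followed with 7.16. The Cd3e probe set therefore covered 2.56 log2 units, against 6.39 for Cd3d and 7.68 for Cd3g, and the SDs of Cd3d and Cd3g were larger than those of 97.9% and 99.5% of all genes. Levels of different genes come from different probes, so no gene's level is set against another's.

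Cd28 averaged 5.38 ± 1.46, with 2.88 in tumour 9, a median of 5.11 and 8.87 in tumour 2. Tumour 27 had 8.64, and tumours 19, 26, 32 and 5 came next with 8.40, 8.06, 7.53 and 7.13. Its 2 probe sets ran together across the tumours (r = 0.967). Thy1 averaged 6.96 ± 1.19, from 4.29 in tumour 17 and 4.51 in tumour 10 over a median of 6.90 to 9.87 in tumour 2. Tumour 5 held the second place with 9.18 and tumour 27 the third with 8.84. Cd4 averaged 6.75 ± 0.76, from 5.91 in tumour 14 over a median of 6.54 to 9.04 in tumour 32. Its 2 probe sets also ran together (r = 0.930), and both were highest in tumour 32. With 1 array per tumour there is no replicate error, so the order of tumours with neighbouring levels is not established for any of the genes.

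**Figure D1:**
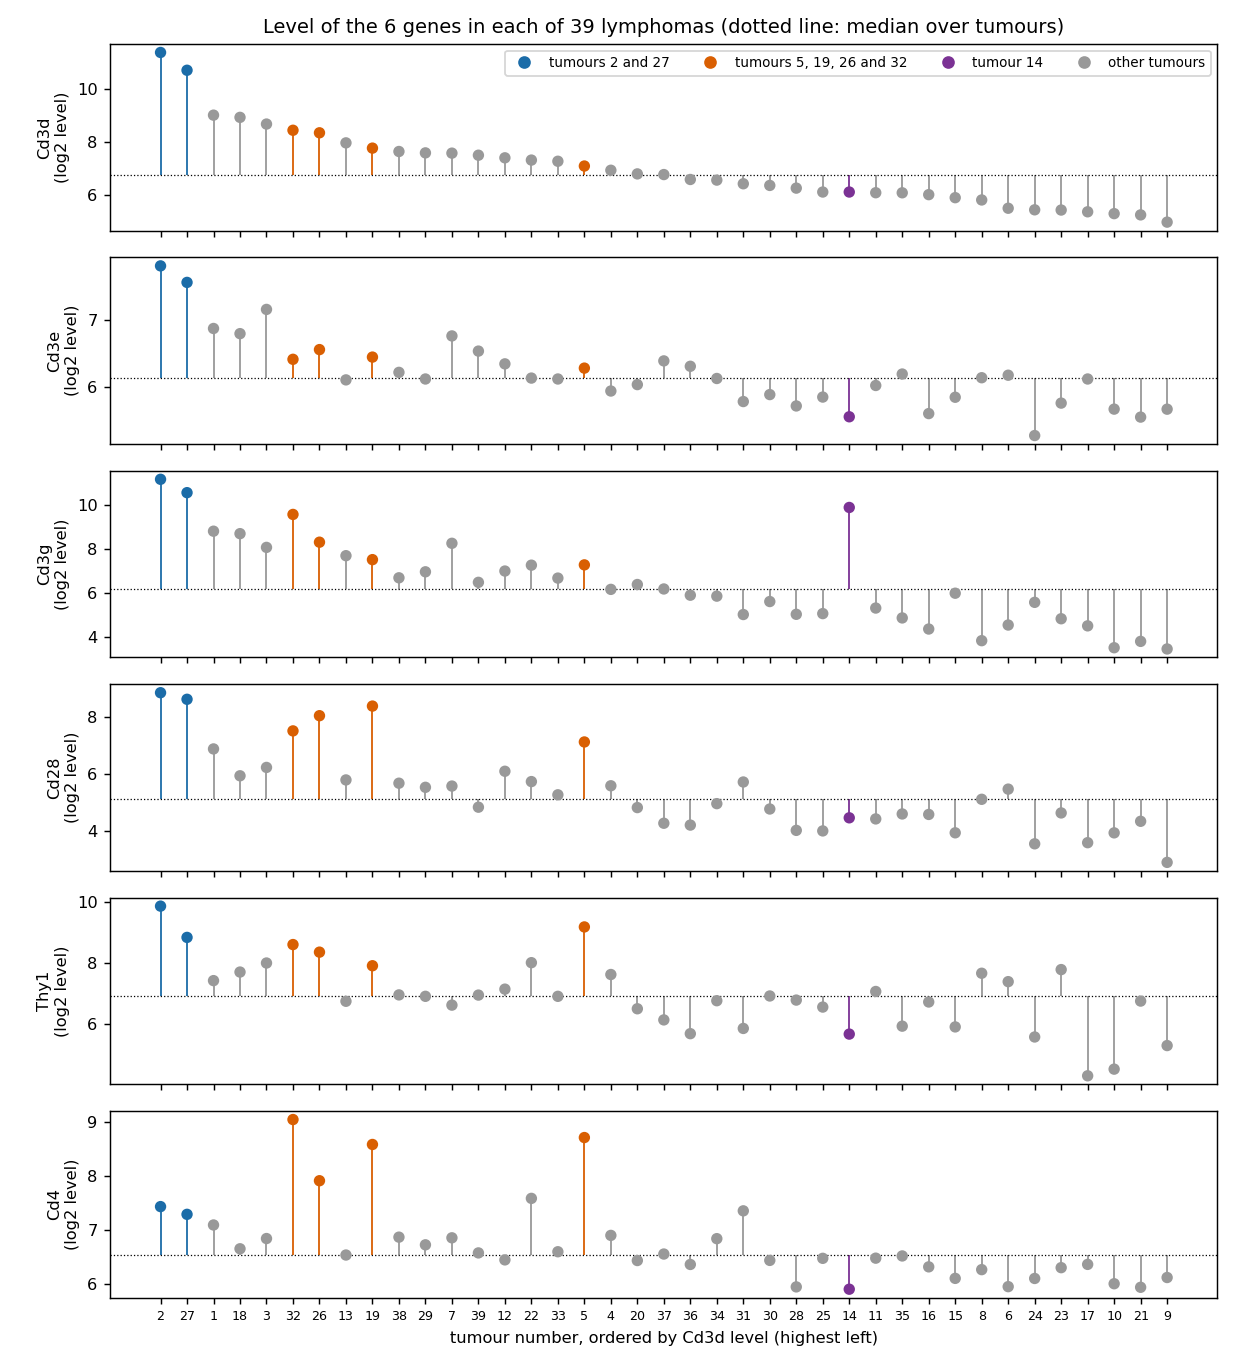
Level (log2) of each of the 6 genes in each of the 39 tumours, which run from the highest Cd3d level on the left to the lowest on the right; each point is 1 array, and its line starts at the gene's median. Tumours 2 and 27 were highest for the 3 CD3 genes and Cd28, tumours 5, 19, 26 and 32 were highest for Cd4, and tumour 14 was high for Cd3g and below the median for the other 5 genes.

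The highest Cd4 levels were in other tumours than the highest levels of the CD3 chains. Tumours 32, 5, 19 and 26 had Cd4 levels of 9.04, 8.71, 8.58 and 7.91, and the other 35 tumours lay between 5.91 and 7.58. A mixture model with 2 components separated these 4 tumours from the rest (BIC gain 10.6), and for none of the other 5 genes did such a model gain more than 2.76. Tumours 2 and 27, with the highest Cd3d, had 7.43 and 7.29 of Cd4, inside the range of the 35. In the same 4 tumours Cd3d stood at 8.44, 7.09, 7.76 and 8.34, below the 9.01 of tumour 1. All 4 still lay above the median of each CD3 chain. Tumour 32 ranked 4 of 39 for Cd3g, at 9.55, and tumour 26 ranked 7 for each of the 3 chains.

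The 6 genes went up and down together. Over 39 tumours the 10 pairs without Cd4 had Pearson's r between 0.607 and 0.893, with a median of 0.759. Cd3d and Cd3e gave r = 0.893 and Spearman's rho = 0.799, and Cd3d and Cd3g gave r = 0.881 and rho = 0.896 (2-sided permutation p = 1e-05 for each of these 4 values, the smallest that 100000 draws give). Without tumours 2 and 27, the farthest from the Cd3d median, these r were 0.808 and 0.833. Cd3d and Cd28 gave r = 0.849 and rho = 0.847, with r = 0.777 without tumours 2 and 27. Cd28 and Thy1, which are on different chromosomes, gave r = 0.827 and rho = 0.817, with r = 0.772 without these tumours. Cd3e and Cd3g, from the same locus, gave r = 0.727 and rho = 0.679, with r = 0.591 without them. Between the CD3 chains and Thy1, r was 0.709 for Cd3d (rho = 0.634), 0.635 for Cd3e (rho = 0.612) and 0.607 for Cd3g (rho = 0.543). Their permutation p for rho were 3e-05, 9e-05 and 0.0005, and r without tumours 2 and 27 was 0.595, 0.482 and 0.473.

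Since 4 tumours formed a separate cluster in Cd4, its correlations were taken within the other 35. There Cd4 gave r = 0.739 with Cd28 (rho = 0.749), 0.730 with Cd3d (rho = 0.794), 0.645 with Cd3e (rho = 0.654), 0.572 with Cd3g (rho = 0.615) and 0.560 with Thy1 (rho = 0.499). Permutation p for rho was 0.0026 with Thy1, 0.00016 with Cd3g and at most 5e-05 with the other 3. Without the farthest tumours (2 and 27, or 2 and 17 for Thy1) these r were 0.660, 0.641, 0.508, 0.417 and 0.497. In all, 15 pairs were compared. Over the 31 tumours left without those of low pan B cell score or low Myc, their r ran from 0.458 (Cd3g and Cd4) to 0.923 (Cd3d and Cd28). When every gene was fitted in limma on each member's level over the 39 tumours, all 30 slopes among members were positive with an adjusted p of at most 0.037, adjusted over all genes. Each fit left out only its own predictor, and the percentages of all genes called are given below.

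**Figure D2:**
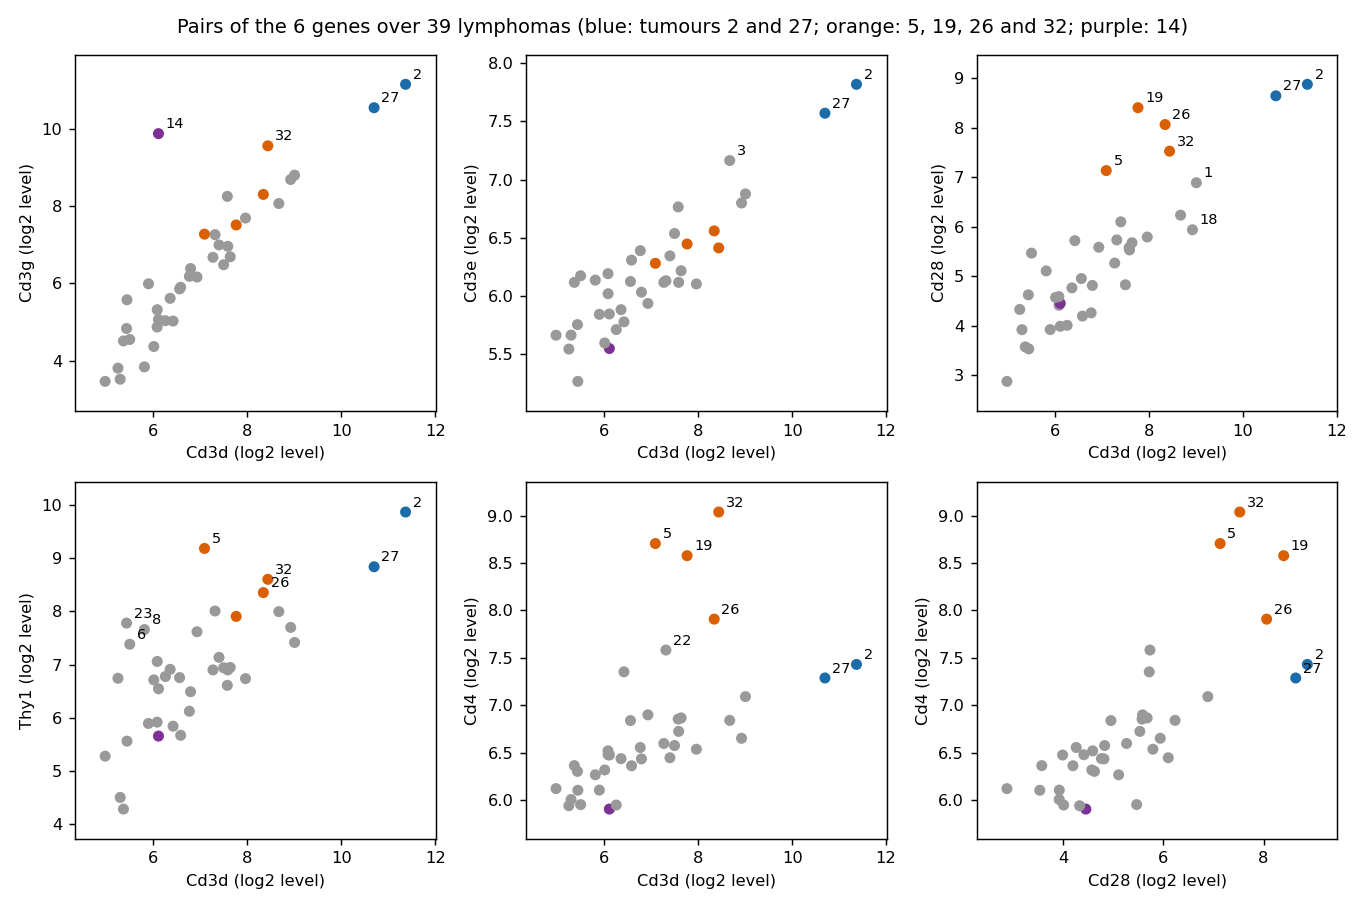
Levels (log2) of 6 pairs of the genes, 1 point per tumour (n = 39), with blue for tumours 2 and 27, orange for tumours 5, 19, 26 and 32, and purple for tumour 14. Cd3g rose with Cd3d, and tumour 14 lay far above the other tumours of like Cd3d level. In the plots of Cd28 and Cd4 the 4 orange tumours lay above those of like Cd3d level.

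Tumour 14 broke the relation within the CD3 locus. Its Cd3g level was 9.87, but it had 6.11 of Cd3d, 5.54 of Cd3e, 4.45 of Cd28, 5.66 of Thy1 and 5.91 of Cd4, ranking 27, 37, 28, 35 and 39 among 39 tumours. Its Cd3g lay 4.60 log2 units above the line of Cd3g on Cd3d drawn through the other 38 tumours, whose residuals had an SD of 0.556. The next largest residual was 1.41, in tumour 32. Without tumour 14, which was set aside after its value was seen, r between Cd3d and Cd3g was 0.955 and that between Cd3e and Cd3g 0.837. Another T cell surface gene, Cd6, was high in tumour 14 too, at 9.05 with a median of 6.35 and 9.11 in tumour 2. The mean centred score over the T cell surface list, which includes Cd6, was -0.490 in tumour 14. The T cell receptor segments on the array did not share the Cd3g excess. Trbv1, a beta chain variable segment, was at 5.97 in tumour 14 with a median of 6.91. Trav9d-3, an alpha chain segment, was at 6.68 with a median of 7.71. The 3′ minus 5′ difference of the control probe sets was 0.0397 in tumour 14, in a range from -0.0008 to 0.395 over the arrays. Cd3g has 1 probe set, so the value has no second measurement.

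The next question was which other genes followed the CD3 chains. Along Cd3e, 1324 genes (7.28%) had a positive and 1570 (8.63%) a negative slope at an adjusted p under 0.05 (limma, 39 tumours, 18193 genes tested). Slopes are in log2 per SD of Cd3e, with their standard errors. All 5 other members were positive, with 1.41 ± 0.21 for Cd3g, 1.29 ± 0.10 for Cd3d, 1.10 ± 0.15 for Cd28, 0.75 ± 0.15 for Thy1 and 0.35 ± 0.11 for Cd4 (adjusted p = 1.4e-05, 7.6e-11, 2.9e-06, 0.00047 and 0.023). Tumours 2 and 27 carried much of this fit: without them 187 genes were called, of which 180 were also called with them in the same direction. Cd3d, Cd3g and Cd28 were still called then (adjusted p = 6.6e-06, 0.017 and 0.0068), while Thy1 and Cd4 were not (adjusted p = 0.093 and 0.11).

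Of 14 measured genes of receptor signalling, 8 were positive along Cd3e and 0 negative in limma, with a median slope of 0.58 against -0.012 over all genes. Sh2d1a, which encodes the adaptor SAP, had a slope of 1.22 ± 0.11 (adjusted p = 4.4e-10), with 8.83 and 7.56 in tumours 2 and 27 and a median of 3.57. Themis, an adaptor of thymocyte selection, had 0.47 ± 0.04, Prkcq, the kinase PKC theta, had 0.58 ± 0.06, and Cd247, the zeta chain of the receptor, had 0.78 ± 0.19 (adjusted p = 4.7e-10, 6.1e-09 and 0.0054). Skap1, Lat and Fyn, which act just behind the receptor, and the adaptor Lcp2 were also called. The 6 not called were Zap70, Fyb, Ubash3a, Trat1, Rasgrp1 and Ptprcap. For Zap70 the probe sets disagreed (lowest r between them -0.096), and another of its probe sets had r = 0.557 with Cd3d. Those of the called gene Cd247 disagreed too (lowest r between them 0.223), with r from -0.121 to 0.637 with Cd3d. Without tumours 2 and 27, 3 of the 14 were called.

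Among T cell surface genes, 5 of 10 were positive: Cd8b1, Cd5, Cd27, Cd8a and Cd96. Cd27, a costimulatory receptor of the TNF receptor family, had a slope of 0.99 ± 0.09 (adjusted p = 1.7e-10), with 8.12 and 7.81 in tumours 2 and 27, the next level 5.13 in tumour 26 and a median of 3.65. Cd8a, the coreceptor alpha chain of cytotoxic T cells, had 0.77 ± 0.08 (adjusted p = 9.9e-09) and was highest at 9.10 and 8.39 in the same tumours. Its median was 5.83, and tumour 32 came close behind with 8.37. Of 8 receptors of costimulation and restraint, 6 were positive. Icos, the relative of Cd28 on activated T cells, had 0.78 ± 0.08 and Ctla4, the inhibitory receptor beside it on chromosome 1, had 0.61 ± 0.09 (adjusted p = 6e-09 and 1.8e-05). Pdcd1, which encodes PD-1, had 0.61 ± 0.10, and Lag3, the MHC class II receptor next to Cd4, had 0.47 ± 0.05 (adjusted p = 3.6e-05 and 8.4e-08). Tnfrsf4 and Tnfrsf9 were the other 2 called, and Cd40lg and Btla were not called. The probe sets of Tnfrsf9 disagreed (lowest r between them -0.300), with r from -0.020 to 0.681 with Cd3d. Without tumours 2 and 27, 3 surface genes and 3 receptors were called.

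All 6 genes for the ligands of these receptors and CD40 were positive along Cd3e, each by its probe set of the highest mean. The probe sets disagreed for Icosl and Cd80 (lowest r between them 0.138 and -0.231). Their lowest r with Cd3d was -0.092 for Icosl and -0.321 for Cd80. Icosl, the ligand of ICOS, had 0.41 ± 0.06, Cd86, a ligand of CD28, had 0.63 ± 0.13, and Cd274, which encodes PD-L1, had 0.65 ± 0.16 (adjusted p = 2.4e-05, 0.00084 and 0.0058). Without tumours 2 and 27 a single one was called. The 6 measured MHC class II genes were positive as well, from 0.45 ± 0.13 for H2-Aa to 0.78 ± 0.18 for H2-DMa (adjusted p = 0.018 and 0.0033), and 0 of 6 were called without these tumours, where H2-DMa had an adjusted p of 0.15.

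Of 8 T cell transcription factors, 4 were positive. Bcl11b, which holds T lineage identity, had 0.82 ± 0.07 (adjusted p = 1.7e-10), with 9.33, 8.65 and 7.58 in tumours 2, 27 and 3 and a median of 5.85. Gata3, the factor of early T cells and type 2 helper cells, had 0.53 ± 0.11, and Satb1 and Tox completed the set. Of 14 genes of helper subsets, 7 were positive. They included Tbx21, the type 1 factor T-bet (1.11 ± 0.17), Ifng, its target cytokine (0.77 ± 0.13), Cxcr5 of follicular helper and B cells (1.12 ± 0.19), and Ikzf2 and Foxp3 of regulatory T cells (1.03 ± 0.11 and 0.37 ± 0.06). The 3 probe sets of Ikzf2 disagreed (lowest r between them 0.437), with r from 0.245 to 0.898 with Cd3d, and the one used had the highest. Foxp3 reached 6.61 in tumour 2 and 5.60 in tumour 27, and the next level was 4.49 in tumour 26. The cytokine genes Il2, Il4, Il13, Il17a and Il21 were not called, and those of Il2, Il13 and Il17a, with 1 probe set each, stayed at or below 4.70 in all tumours. The probe sets of Il21 disagreed: the one not used had r = 0.770 with Cd3d, a median of 2.90 and 6.59 in tumour 2.

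Some genes of cells other than helper T cells moved with Cd3e too. Of 11 cytotoxic and natural killer genes, 10 were positive. Ccl5, a chemokine of effector T and NK cells, had 1.48 ± 0.16, with 13.73 in tumour 2 and a median of 8.50. Nkg7, a granule protein, had 1.19 ± 0.12, and Eomes, a factor of cytotoxic cells, had 0.74 ± 0.08 (adjusted p = 3.7e-08, 9.5e-09 and 4.9e-08 for the 3 genes). Without tumours 2 and 27, 6 of 11 were called in limma. Plasma cell genes were positive in 4 of 7 and dendritic cell genes in 4 of 7, led by Jchain, the immunoglobulin joining chain (1.35 ± 0.25), and Itgax, the integrin CD11c (0.89 ± 0.15). For Zbtb46, another dendritic cell gene called, the probe sets disagreed (lowest r between them -0.157), with r from -0.188 to 0.795 with Cd3d. Macrophage genes were positive in 3 of 11 and plasmacytoid dendritic cell genes in 2 of 9 with 1 negative. Fibroblast genes were positive in 2 of 8 with 1 negative, and endothelial genes in 1 of 6. Over all genes 7.28% were positive and 8.63% negative, and these short lists were not tested against those shares. The pan B cell (9), neutrophil (7) and erythroid (4) lists had 0 calls. The 2 of 8 thymocyte genes called, Cd8b1 and Ccr9, also stand in the surface and plasmacytoid lists, while Rag1, Rag2, Dntt and Ptcra were not called.

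The mean centred scores placed these lists beside the CD3 levels. In tumours 2 and 27 the surface score was 2.54 and 1.67, the cytotoxic score 3.27 and 2.32 and the plasma cell score 1.94 and 1.91. The pan B cell score was 0.828 and 0.717 there, near the median of 0.595. The macrophage score was 1.57 in tumour 2 and -0.226 in tumour 27. The part of any of these cell types in the slopes was not tested.

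**Figure D3:**
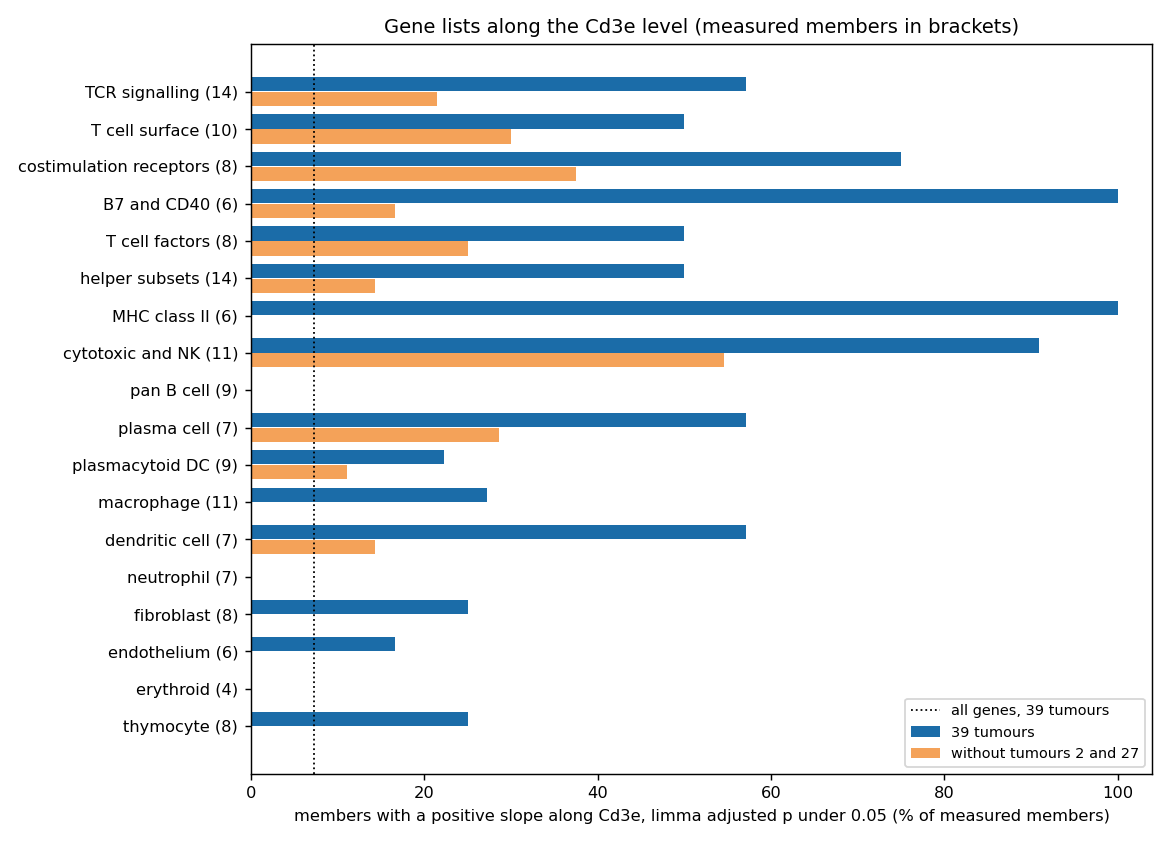
Share of each gene list's measured members (number in brackets) with a positive slope along Cd3e at an adjusted p under 0.05, in all 39 tumours (blue) and without tumours 2 and 27 (orange); the dotted line is the 7.28% of all genes called positive in all tumours. In all tumours every list stood above the line except those of pan B cells, neutrophils and erythroid cells, which had 0 positive calls, and the MHC class II share was 0 without tumours 2 and 27.

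The largest positive slopes of all along Cd3e were 1.57 ± 0.20 for Ubd, an interferon-induced ubiquitin-like protein, 1.56 ± 0.16 for Ms4a4b, a T cell membrane protein, 1.51 ± 0.26 for Cxcl9, the interferon-induced ligand of CXCR3, and 1.48 ± 0.14 for Trbv1. Without tumours 2 and 27 each was still called (adjusted p = 0.0015, 3.8e-05, 0.038 and 2.3e-05). The largest negative ones were -0.92 ± 0.25 for Lrrn4 and -0.77 ± 0.19 for Nt5dc2, and neither was called without these tumours (adjusted p = 0.19 and 0.28).

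The genes nearest to each member by Pearson's r over the 39 tumours are given as a description. Nearest to Cd3d were Trbv1 (0.984), Trav9d-3 (0.968), Ms4a4b (0.944), Bcl11b (0.941) and Sh2d1a (0.932). Trbv1 reached 11.77 and 10.98 in tumours 2 and 27, and Trav9d-3 reached 11.40 and 10.59 there. For Cd3e they were Bcl11b (0.882), Cd27 (0.880), Trav9d-3 (0.878), Themis (0.875) and Sh2d1a (0.870), and for Cd3g Trbv1 (0.881), Trav9d-3 (0.872), Ms4a4b (0.857), Ccl5 (0.833) and Traf1 (0.825). Those of Cd28 were Ccl5 (0.888), Csf2rb2 (0.883), Ctsw (0.883), Sh2d1a (0.868) and Gpr183 (0.867). Thy1 had no T cell receptor gene among its nearest: they were Selenom (0.862), Ern1 (0.846), Ptgfrn (0.839), Gpr183 (0.837) and Syngr2 (0.835). For Cd4 they were Cd7 (0.899), Siglech (0.894), Sla2 (0.879), Cldnd1 (0.873) and Cd8b1 (0.867), with the 4 separate tumours included. Within the other 35 the first 5 were P2ry13 (0.781), Kcna2 (0.765), St8sia1 (0.761), Msc (0.754) and Adgre4 (0.752), and Cd8b1 had 0.742 there.

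The same fit on each of the other members, with limma and adjustment over all genes, called different numbers of genes. Along Cd3d 7.10% of genes were positive and 7.66% negative, along Cd3g 4.58% and 3.51%, and along Cd28 11.4% and 14.7%. Along Thy1 the shares were 14.5% and 16.1%, and along Cd4 4.83% and 3.18%. Of the signalling list, 9 of 14 genes were positive along Cd3d, 7 along Cd3g, 10 along Cd28, 10 along Thy1 and 4 along Cd4. The cytotoxic list had 10 of 11 along Cd3d, 8 along Cd3g, 10 along Cd28, 10 along Thy1 and 6 along Cd4. The lists parted in the pan B cell genes, of which 0 of 9 were negative along Cd3d, 0 along Cd3g, 2 along Cd28, 5 along Thy1 and 2 along Cd4. They parted again in the plasmacytoid genes, of which 2 of 9 were positive along Cd3d, 4 along Cd3g, 6 along Cd28, 6 along Thy1 and 5 along Cd4. Without the 8 tumours of low pan B cell score or low Myc, 0 of 9 pan B cell genes were negative along any of these 5 members. The positive plasmacytoid genes were then 4 along Cd3d, 1 along Cd3g, 4 along Cd28, 2 along Thy1 and 2 along Cd4. Of all 18193 genes, 1450, 547, 1417, 1041 and 574 were positive in these fits, in the same order. The negative ones were 1075, 179, 901, 433 and 301. The pan B cell score itself chose 7 of these 8 tumours. These fits share all tumours, and the differences between them were not tested.

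What Cd28, Thy1 and Cd4 followed beyond the Cd3e level was tested by fitting each together with Cd3e. Cd3d and Cd3g were not held fixed, so these slopes can still carry variation shared with the other CD3 chains. At a given Cd3e level, 4.72% of 18192 genes were positive and 4.30% negative along Cd28, 8.72% and 6.13% along Thy1, and 3.44% and 1.52% along Cd4. The 4 members other than the 2 in the fit were all positive along Cd28, with slopes of 0.59 ± 0.13 for Cd3d, 0.96 ± 0.29 for Cd3g, 0.96 ± 0.17 for Thy1 and 0.77 ± 0.11 for Cd4 (adjusted p = 0.0039, 0.031, 0.00033 and 5.2e-05). Along Thy1, Cd28 and Cd4 were called (0.85 ± 0.15 and 0.45 ± 0.12, adjusted p = 0.00025 and 0.012), and Cd3d and Cd3g had adjusted p of 0.055 and 0.22. Along Cd4, Cd28 and Thy1 were called (0.81 ± 0.12 and 0.53 ± 0.14, adjusted p = 7.1e-06 and 0.02), and Cd3d and Cd3g had adjusted p of 0.15 and 0.2. The Cd3e probe set had the smallest SD of the CD3 chains. With Cd3g held fixed in its place, limma called 3009 genes along Cd28 and 4745 along Thy1, against 1641 and 2703 with Cd3e. Along Cd4 it called 678, against 901 with Cd3e.

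Along Cd4 at a given Cd3e level, 4 of 9 plasmacytoid dendritic cell genes were positive. Siglech, a lectin of plasmacytoid dendritic cells, had the lowest adjusted p among them with a slope of 1.75 ± 0.13 (adjusted p = 3.1e-12), and Bst2, Ccr9 and Tcf4 had 0.84 ± 0.09, 1.17 ± 0.22 and 0.52 ± 0.12. Of the T cell surface genes Cd8b1, Cd7, Cd5 and Cd8a were positive (2.10 ± 0.23, 1.87 ± 0.15, 1.40 ± 0.17 and 0.34 ± 0.07), and so was Flt3, a growth factor receptor of dendritic cell precursors (1.30 ± 0.14). Ebf1 and Cd79b, a factor and a receptor chain of B cells, were negative (-1.07 ± 0.18 and -0.44 ± 0.07). No macrophage gene was called, 0 of 11 with limma. In tumours 32, 5, 19 and 26 Siglech stood at 12.54, 11.30, 10.96 and 9.52, against a median of 5.99 over all tumours, and tumour 22 reached 9.75 with a Cd4 level of 7.58. Cd7 stood at 11.69, 12.33, 11.01 and 10.98 in the 4 tumours, above the 9.94 of tumour 22, and its median was 5.83. Cd8b1, the beta chain of CD8, stood at 13.33, 13.21, 10.84 and 11.10, which overlapped with 11.21 in tumour 22. Bst2 too was high in all 4, at 12.61, 12.42, 11.72 and 11.30 (median 9.42), but other plasmacytoid genes split them. Ccr9 stood at 11.54 and 10.20 in tumours 32 and 5, but at 5.31 and 6.20 in 19 and 26 (median 5.07). Cox6a2 of the same list stood at 12.56 and 12.17, but at 6.31 and 6.48 (median 7.02). The pan B cell score of the 4 tumours was between -3.06 and -1.23.

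The 4 tumours decided this fit. Without them limma called 0 genes along Cd4 at a given Cd3e level, with 1224 genes (6.73%) at an unadjusted p under 0.05 and a lowest adjusted p of 0.15. Without all 8 tumours of low pan B cell score or low Myc it called 6. In the fit on Cd4 alone, 532 genes were called without the 4 tumours (376 positive, 156 negative), and 228 of them were also called with them in the same direction. All 5 other members were among these, with Cd28 at 0.93 and Cd3d at 1.08 (adjusted p = 0.00022 and 0.00032). In that fit without them, 2 plasmacytoid genes, 5 signalling genes and 0 pan B cell genes were called.

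Along Thy1 at a given Cd3e level, 7 of 9 pan B cell genes were negative. Ms4a1, which encodes CD20, had -1.96 ± 0.41, the coactivator Pou2af1 -2.09 ± 0.54, the receptor chain Cd79a -1.25 ± 0.31 and the kinase Blk -1.21 ± 0.27 (adjusted p = 0.0015, 0.0086, 0.0059 and 0.0032). Positive calls came from 4 of 8 fibroblast genes (Col1a1, Col1a2, Thbs2 and Pdgfrb), 3 of 11 macrophage genes (Adgre1, Cd68 and Fcgr1) and 5 of 9 plasmacytoid genes. Fyb, an adaptor of T and myeloid cells, had 1.61 ± 0.26 (adjusted p = 0.00012). Tumours 8, 6 and 23 had the highest Adgre1, the macrophage marker F4/80 (13.12, 13.05 and 12.55, with 9.90 the next level in tumour 2). Thy1 stood at 7.66, 7.38 and 7.78 in these 3 tumours while Cd3d stood at 5.81, 5.50 and 5.43, ranks 32, 33 and 35 of 39. Cd3e, the gene held fixed, stood at 6.13, 6.17 and 5.75 there, ranks 18, 17 and 32, with a median of 6.12 over all tumours. Without the 8 tumours of low pan B cell score or low Myc, limma called 235 genes along Thy1 at a given Cd3e level, and 0 pan B cell, 0 macrophage and 0 plasmacytoid genes. The collagen genes Col1a1 and Col1a2 and Thbs2, a matrix glycoprotein of fibroblasts, were still called with 0.70, 0.72 and 0.46 (adjusted p = 0.043, 0.0096 and 0.033). In the limma fit on Thy1 without Cd3e, over 39 tumours, neither Col1a1 nor Col1a2 was called. The 4 of 8 fibroblast genes called there were Dcn, Pdgfra, Thbs2 and Pdgfrb. Col1a1 was negative along Cd3e (-0.44 ± 0.15, adjusted p = 0.042). The part of fibroblasts in the Thy1 level was not tested.

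Along Cd28 at a given Cd3e level, 6 of 11 cytotoxic genes were positive, led by Ccl5 (1.11 ± 0.18) and Gzmk, a granzyme (0.91 ± 0.20), with adjusted p of 0.00014 and 0.0026. The plasmacytoid list had 4 positive and 1 negative of 9, and the pan B cell list 3 negative of 9. Cd7 and Cd5 had 2.07 ± 0.31 and 1.88 ± 0.23 (adjusted p = 6.5e-05 and 5e-06). Without the 8 tumours of low pan B cell score or low Myc, 304 genes were called, among them 5 cytotoxic, 2 plasmacytoid and 0 pan B cell genes. Cd3d, Thy1, Cd5 and Ccl5 were still called there (slopes 0.77, 0.77, 0.79 and 1.00, adjusted p = 0.00029, 0.023, 0.0034 and 0.019).

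**Figure D4:**
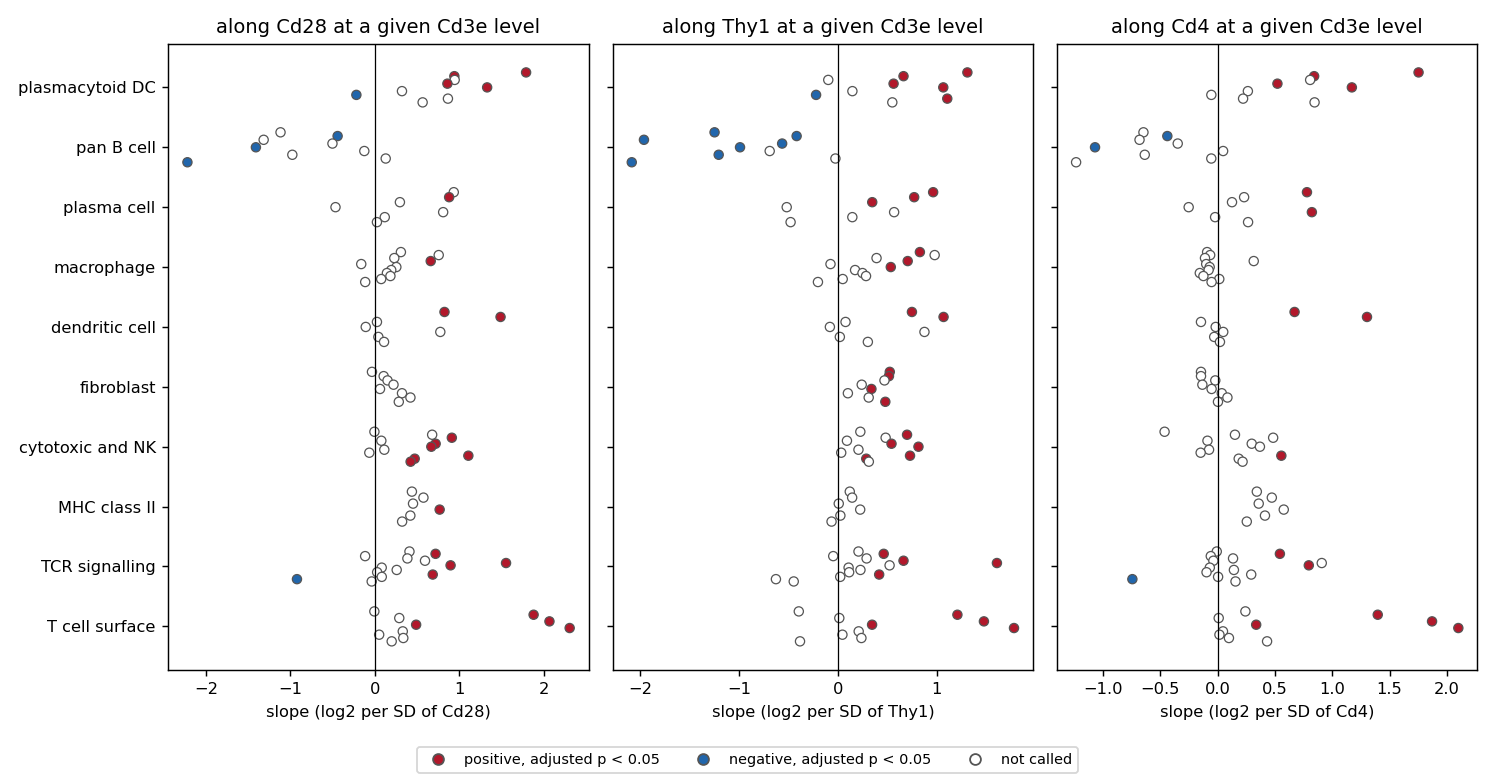
Slopes (log2 per SD) of the measured genes of 10 lists along Cd28, Thy1 and Cd4, each fitted together with Cd3e in 39 tumours; each point is 1 gene, red and blue for positive and negative slopes at an adjusted p under 0.05, white for genes not called. Most pan B cell genes had negative slopes in all 3 fits, with 7 of 9 called along Thy1, and of these fits only that on Thy1 with Cd3e called fibroblast genes.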

How the data were processed

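RNA of 39 tumours was measured on 1 short-oligonucleotide array each. The deposited values are log2 levels per probe set; the submitters' processing notes name RMA and affy as the authors' tools, without versions. RMA quantile normalizes arrays, so shifts in total RNA are not seen and dim genes are compressed. Probe sets were named through the platform annotation (34958 with 1 gene, 932 with several, 9211 not listed), and 34754 matched a RefSeq gene of GRCm38.p6 by Entrez identifier.

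All 18194 genes were fitted in limma 3.58.1 (lmFit, eBayes with trend, R 4.3.3) on each member's level divided by its SD, and on Cd28, Thy1 or Cd4 together with Cd3e, in 9 fits. Tests were 2-sided with Benjamini-Hochberg adjustment over all genes and a threshold of 0.05. Correlations were tested with 100000 permutations. Clusters came from mclust 6.1.1 (BIC gain over 10, at least 3 tumours). Only the fit on Cd3e and that on Cd4 together with Cd3e were tested on simulated data, in which genes varied independently of each other.

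The members, the 19 gene lists (174 entries, 159 measured) and the tests were chosen with earlier results of these data known. The other entries were not analysed here. Named genes are the members, the 5 nearest by r, the 12 largest slopes of each direction among called genes, and the 4 largest slopes among called genes of each list. Other names, such as those of uncalled or weaker list members, were chosen after their values were seen. Alternatives were ranks of the predictor, the mean of a gene's probe sets, genes above the median level, robust eBayes without trend, leaving out the 2 farthest tumours or the tumours whose pan B score was below -1 or Myc level below 10, and Cd3g in place of Cd3e. Leaving out tumour 14 and the Cd4 cluster were added after the data were seen. The labels name no batch.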

Additional observations from a re-analysis of the deposited data

How the results depend on the processing

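The median r of the 15 member pairs, 0.730, stayed between 0.630 and 0.745 under the alternatives run. Of 255 member slopes under alternatives, 234 kept direction and call, 18 lost the call and 3 gained it; of 3382 slopes of other named genes, 2782 kept both, 595 lost the call and 5 turned. Counts of called genes moved most when sets of tumours were left out, and the causes were not tested. Without tumour 14, 2190 genes were called along Cd3g. Without the 2 farthest tumours, 470 genes were called along Cd3d (2685 with all), 187 along Cd3e (2894), 232 along Cd3g (1472), 2105 along Cd28 (4737), 3079 along Thy1 (5570), 647 along Cd4 (1458) and 199 along Cd4 at a given Cd3e level (901). Without tumours of low pan B cell score or low Myc, counts were 1360 along Cd3e, 726 along Cd3g, 2318 along Cd28, 1474 along Thy1 and 875 along Cd4, and at a given Cd3e level 304 along Cd28 (1641 with all), 235 along Thy1 (2703) and 6 along Cd4. With ranks, counts were 1629 along Cd3d, 817 along Cd28 and 230 along Cd4 at a given Cd3e level. With genes above the median level, where fewer genes were tested, they were 797 along Cd3g, 970 along Cd4, and 878 and 587 along Cd28 and Cd4 at a given Cd3e level. With Cd3g fixed they were 3009 along Cd28 and 4745 along Thy1. Without the Cd4 cluster, 532 and 0 genes were called along Cd4 alone and at a given Cd3e level. Slopes turned for Klk1 along Cd3d (0.28) and Cd3e (0.42) with the mean of its disagreeing probe sets, for Otub2 along Cd4 at a given Cd3e level without the Cd4 cluster (0.067), and for Cth there without low-B or low-Myc tumours (0.034) and without the cluster (0.12). No paired analysis was possible because the labels give 1 group. Signal over background is not given in these values, which limits what can be said of dim genes.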

Other observations

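Some genes of T cell signalling were highest in tumours other than 2 and 27. Tumour 21 had the second lowest Cd3d and Cd3e (5.25 and 5.54), yet the highest Trat1, which encodes a receptor-associated adaptor (7.83, with 5.41 the next level in tumour 2 and a median of 4.00). The same tumour was highest for Lat (10.73, with 10.60 in tumour 2), for Ubash3a, a phosphatase that restrains the receptor (6.92, with 6.73 in tumour 13, while its other probe set was highest in tumour 2 with 6.18), and for Il7r, the interleukin-7 receptor of T and B precursors (12.77, with 11.88 in tumour 13). Cd247, the zeta chain, was highest at 10.88 in tumour 13, which ranked 8 of 39 for Cd3d, 24 for Cd3e and 10 for Cd3g, and stood at 8.95 in tumour 21. Lef1, a factor of early T and B cells, was highest at 11.35 in tumour 31, which had 6.42 of Cd3d and, with 11.55 of Rag1, was second to tumour 29 (11.81) for that recombinase gene. These tumours were chosen after their values were seen, and no explanation was tested.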
